A study of Mus musculus with 8 samples.

Results

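The genes described here encode the nuclear-encoded subunits of oxidative phosphorylation. They were chosen by symbol from the count tables of both experiments: symbols that start with Ndufa, Ndufb, Ndufc, Ndufs, Ndufv, Uqcr, Cox4 to Cox8 or Atp5, together with Sdha, Sdhb, Sdhc and Sdhd. This gave 92 of 34399 symbols, after 1 symbol marked as a pseudogene was left out. They comprise 7 core and 29 accessory subunits of complex I, 4 subunits of complex II, 8 of complex III, 20 of complex IV, 16 of complex V, and 8 assembly or related factors that share the same name stems. All 92 were found in GENCODE vM21, which lists Atp5l2 as a processed pseudogene and the other 91 as protein-coding. Atp5l2 and Cox7b2 had no count in any library, which left 90 genes with at least 1 count.

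RNA was sequenced from cardiac fibroblasts that had been sorted for a Cre-dependent eGFP reporter from the ventricles of mice, 4 weeks after transverse aortic constriction (TAC) had loaded the heart with pressure. All mice carried a tamoxifen-dependent MerCreMer knocked into an endogenous gene and the reporter in the Rosa locus, underwent surgery at 8 to 10 weeks of age, and received tamoxifen at 100 mg/kg on 2 days followed by chow at 40 mg/kg. The 4 groups had 2 libraries each, named by the HK numbers of the labels. Postn-Cre control (HK3 and HK4) carried MerCreMer in Postn, a gene of activated fibroblasts, and Smad2/3 double knockout (DKO; HK15 and HK16) carried in addition floxed Smad2 and floxed Smad3. Tcf21-Cre control (HK6 and HK7) carried MerCreMer in Tcf21, a gene of resident fibroblasts, and Tgfbr1/2 DKO (HK2 and HK4) carried in addition floxed Tgfbr1 and floxed Tgfbr2. The knockouts therefore act only in cells that expressed the driver gene, and control mice carried Cre without floxed alleles. The labels do not say whether 2 libraries of a group came from separate mice, so the p-values cover the spread between libraries, which may be technical.

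Oxidative phosphorylation couples the oxidation of nutrients to ATP synthesis in the inner mitochondrial membrane. Complexes I and II pass electrons from NADH and succinate to ubiquinone, complex III passes them to cytochrome c, and complex IV passes them to oxygen. Complexes I, III and IV pump protons, and complex V, the ATP synthase, uses the proton gradient to make ATP. The heart depends heavily on this pathway, and several subunits of complex IV have a second isoform found mainly in heart and skeletal muscle. The 13 subunits encoded in mitochondrial DNA were not analysed here, since none of their symbols was found in the count tables.

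Libraries held 21477805 to 32594664 counts. Levels are given as CPM, the count per 1000000 counts of the library, and a floor of 3 counts equals 0.092 to 0.1397 CPM. The fibroblast markers Dcn and Pdgfra were abundant in all 8 libraries, at 8965 to 15432 CPM and 327 to 797 CPM. Of the 12 fibroblast markers listed, 6 were higher and 1 lower in Tcf21-Cre control than in Postn-Cre control (adjusted p under 0.05, edgeR). The other 5 did not pass. Thy1 was at 6.03 to 13.5 CPM in the Postn-Cre experiment and at 47.9 to 227 CPM in the Tcf21-Cre experiment. Tcf21 was at 25.6 to 37.7 CPM against 111 to 163 CPM. Ddr2 went the other way, at 574 and 760 CPM in Postn-Cre control against 537 and 330 CPM in Tcf21-Cre control. In Smad2/3 DKO against Postn-Cre control, 3 of the 12 were lower at an adjusted p under 0.05 (edgeR) and none was higher. The gene-level counts of the targeted genes were not strongly reduced in the knockouts. Smad2 was at 95.4 and 82.3 CPM in Postn-Cre control and at 84.5 and 78.2 CPM in Smad2/3 DKO, and Smad3 at 114 and 92.7 against 70.5 and 109 CPM. Tgfbr1 was at 229 and 238 CPM in Tcf21-Cre control and at 181 and 193 CPM in Tgfbr1/2 DKO, and Tgfbr2 at 370 and 406 against 471 and 406 CPM. A gene count does not single out the floxed exons, so these values do not measure recombination. Each experiment had its own sequencing run and Cre driver, which cannot be told apart between the experiments.

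Promoters of 72 of the 92 genes were matched in the RefSeq table (GRCm38.p6; 250 bases before to 50 after the start). They were searched on both strands for the core of the NRF1 site, GCATGCGC, named for a transcription factor of nuclear-encoded respiratory genes. It was found in 12 of the 72 (16.7%), against 3.05% of 27025 genes with a window of that length. The genes were Atp5g2, Atp5k, Atp5l, Cox6a1, Ndufa6, Ndufa8, Ndufa11, Ndufaf4, Ndufaf5, Sdhb, Uqcr11 and Uqcrc1. The other motifs were nearer to their shares over all genes, except the YY1 motif, found in 4 genes (5.6% against 0.75%). The SP1 box GGGCGGG was found in 25 (34.7% against 27.9%), the GABPA motif CCGGAAGT in 5 (6.9% against 4.31%), the cAMP response element TGACGTCA in 4 (5.6% against 2.03%), and the Smad palindrome GTCTAGAC in 0 (against 0.25%). None of the 6 motifs contains another. All 9 genes that rose in Tgfbr1/2 DKO had a matched promoter, and 2 of them, Cox6a1 and Atp5l, held the NRF1 core. The 250 bases upstream of 3 genes are shown: these 2, and Atp5g2, which differed most between the control groups. All 3 lie on the minus strand, at chr5:115348959-115349208 for Cox6a1, chr9:44920743-44920992 for Atp5l and chr15:102671048-102671297 for Atp5g2, and capitals mark the NRF1 core, extended where a second match on the other strand overlaps it.
Cox6a1: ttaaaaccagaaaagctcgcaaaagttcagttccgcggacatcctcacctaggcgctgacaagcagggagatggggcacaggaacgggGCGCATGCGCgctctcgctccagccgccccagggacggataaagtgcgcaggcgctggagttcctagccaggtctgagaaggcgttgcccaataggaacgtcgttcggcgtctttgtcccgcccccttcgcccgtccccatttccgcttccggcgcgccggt
Atp5l: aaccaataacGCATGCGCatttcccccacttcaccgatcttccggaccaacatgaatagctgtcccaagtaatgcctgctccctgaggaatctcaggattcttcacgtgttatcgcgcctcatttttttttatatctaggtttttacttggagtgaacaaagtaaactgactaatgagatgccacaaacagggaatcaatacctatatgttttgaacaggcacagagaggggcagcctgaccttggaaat
Atp5g2: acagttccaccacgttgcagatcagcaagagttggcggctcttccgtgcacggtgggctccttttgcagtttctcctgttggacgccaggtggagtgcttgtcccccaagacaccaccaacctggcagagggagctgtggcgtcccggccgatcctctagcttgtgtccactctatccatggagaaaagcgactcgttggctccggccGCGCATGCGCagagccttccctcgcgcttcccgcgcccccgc
A match is a description of the letters and not evidence of binding.

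The 92 genes together took up 0.198% to 0.521% of the counts of a library. Their summed level was 2324 and 1983 CPM in Postn-Cre control and 2132 and 2197 CPM in Smad2/3 DKO. It was 3443 and 3699 CPM in Tcf21-Cre control and 5212 and 4934 CPM in Tgfbr1/2 DKO. The Smad2/3 DKO libraries thus lay between their controls, and the Tgfbr1/2 DKO libraries lay above theirs without overlap. The ratio of means was 1.005 for Smad2/3 DKO and 1.421 for Tgfbr1/2 DKO. With 2 libraries against 2, an exact two-sided permutation test cannot go below p = 0.333, so no test is given for sums. Of the 88 genes with a group mean of at least 1 CPM, 74 had their highest group mean in Tgfbr1/2 DKO and 57 their lowest in Postn-Cre control. This count was not made over all genes, so it does not show how far these genes differ from others. Of all tested genes, 46.7% were higher without overlap in Tcf21-Cre control than in Postn-Cre control. In Tgfbr1/2 DKO against Tcf21-Cre control that share was 21.8%.

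**Figure D1:**
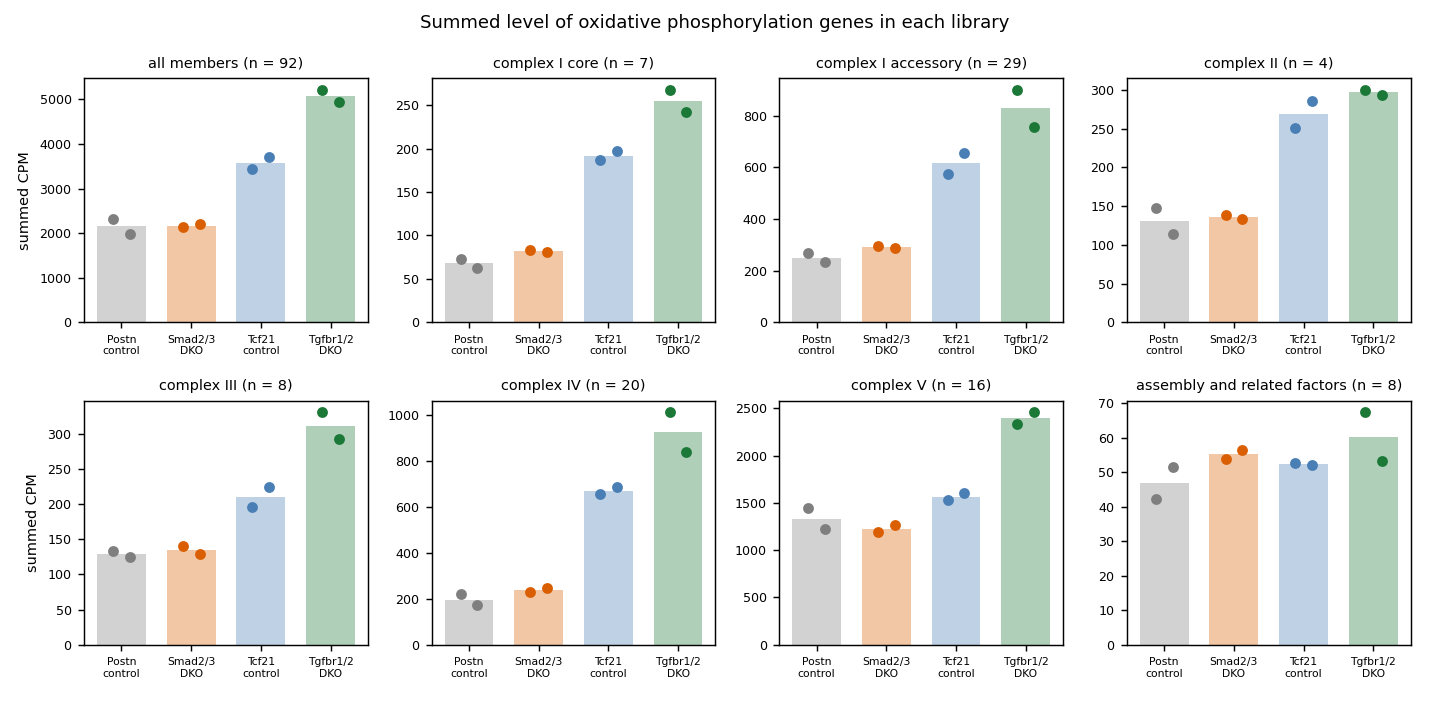
Summed CPM of the genes of each complex (y axis, starting at 0) in the 4 groups (x axis); points are libraries and bars are means of 2 libraries. Complex V has the highest sum of the classes in each group, and in every panel both Tgfbr1/2 DKO libraries lie above both Tcf21-Cre control libraries.

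Atp5b, which encodes the catalytic beta subunit of ATP synthase, had the highest level per exon length of all members, with a mean of 209 CPM per kb over the 8 libraries. Cox6a1 followed with 103 and Cox8a with 98.6 CPM per kb. The exon length was the union of all annotated exons of a gene. Atp5b alone made up 40.1% and 41.9% of the summed CPM in Postn-Cre control but 20.7% and 18.8% in Tcf21-Cre control. Without it the sums were 1393 and 1152 CPM in Postn-Cre control and 1391 and 1407 CPM in Smad2/3 DKO. They were 2729 and 3004 CPM in Tcf21-Cre control and 4095 and 3657 CPM in Tgfbr1/2 DKO, so the gap between these groups did not rest on Atp5b. The place of both Smad2/3 DKO libraries between their controls did, since without Atp5b Smad2/3 DKO HK16 lay above both. By class, the ratio of means for Smad2/3 DKO over Postn-Cre control was 0.92 in complex V and 1.039 to 1.215 in the others.

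In Tgfbr1/2 DKO against Tcf21-Cre control, 89 members were tested with edgeR's quasi-likelihood test (Benjamini-Hochberg adjustment over all tested genes, threshold 0.05). Of these, 9 rose, none fell, and 80 did not pass. Over all 16661 tested genes, 3.94% were called, 2.63% higher and 1.31% lower. A log2 fold change above 0 was found in 82 of the 89 members, against 49.1% of all genes, and 63 were higher without overlap between the groups, against 21.8%. Only 2 were lower without overlap, against 29.4%. The median log2 fold change was 0.475 over the members and -0.012 over all tested genes. At an unadjusted p under 0.05 there were 45 members, against 20% of all genes.

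**Figure D2:**
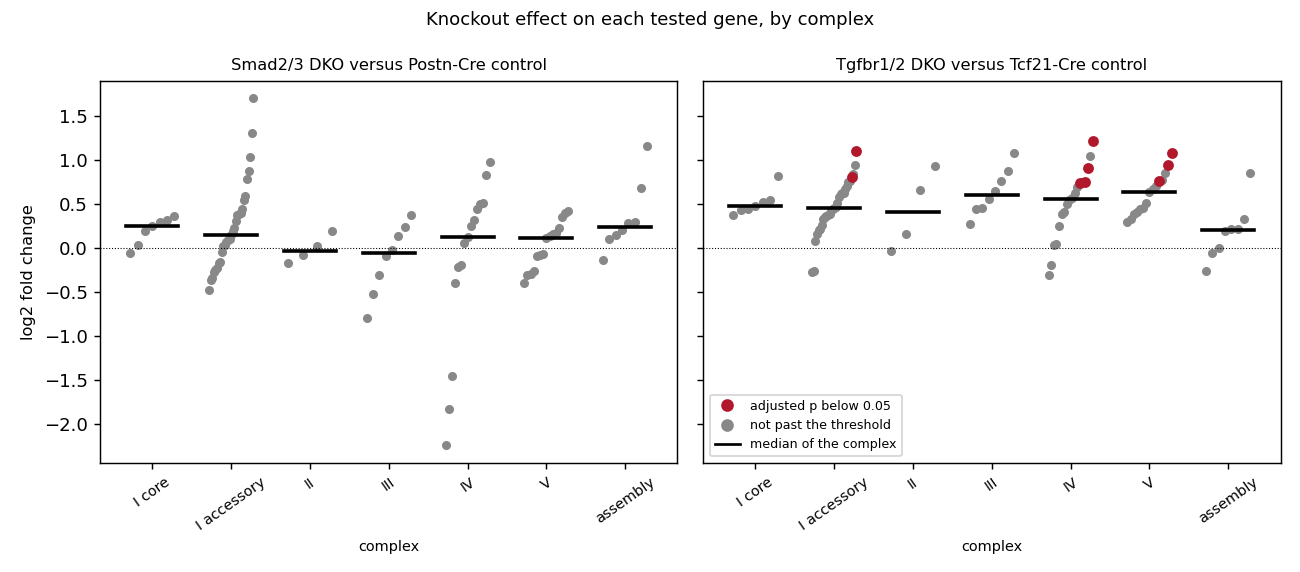
Log2 fold change (y axis) of each tested gene by complex (x axis) in the 2 knockout comparisons; red points passed an adjusted p of 0.05, grey points did not, and black lines are medians. All 9 red points lie in the Tgfbr1/2 panel, in the complex I accessory, IV and V columns.

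Complex V held 3 of the 9 genes. Atp5g1 (chr11:96068852-96075670) encodes the c subunit that forms the rotating ring of ATP synthase. It was at 68.2 and 80.3 CPM in Tcf21-Cre control and at 151 and 147 CPM in Tgfbr1/2 DKO, with a log2 fold change of 1.08 ± 0.19 (SE, adjusted p = 0.0155, edgeR). Atp5l (chr9:44912557-44920742), the g subunit, was at 29.5 and 35 CPM against 70.9 and 47.7 CPM (0.94 ± 0.22, adjusted p = 0.0413). Atp5o (chr16:91925214-91931687), which encodes the stalk subunit that confers oligomycin sensitivity, was at 39 and 37.4 CPM against 66 and 56.8 CPM (0.76 ± 0.18, adjusted p = 0.0441). In none of the 3 did the groups overlap. All 15 tested complex V genes had a log2 fold change above 0, with a median of 0.638, and 14 did not overlap. Atp5b was at 713 and 695 CPM in Tcf21-Cre control against 1117 and 1277 CPM in Tgfbr1/2 DKO (0.85, adjusted p = 0.0603), and Atp5a1, the alpha subunit, at 249 and 267 against 308 and 355 CPM (0.44, adjusted p = 0.263).

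Complex IV, cytochrome c oxidase, held 4 of the 9. Cox5a (chr9:57521274-57532426) had the largest log2 fold change of the 9 genes, with 10.4 and 10.6 CPM in Tcf21-Cre control against 22.7 and 23.4 CPM in Tgfbr1/2 DKO (1.22 ± 0.23, adjusted p = 0.0215, edgeR). Ndufa4 (chr6:11900292-11907497), named as a complex I protein but now assigned to complex IV, was at 28.2 and 31.8 CPM against 63 and 44.6 CPM (0.91 ± 0.21, adjusted p = 0.0404). Cox6a1 (chr5:115345642-115348981), the widely expressed isoform of subunit VIa, was at 102 and 95.6 CPM against 166 and 149 CPM (0.75 ± 0.18, adjusted p = 0.0419). Cox7b (chrX:106015700-106022450) was at 43.9 and 43.1 CPM against 74.7 and 63.2 CPM (0.74 ± 0.18, adjusted p = 0.0476). The groups did not overlap in any of the 4. Of the 18 tested complex IV genes, 16 were above 0, with a median of 0.557. Cox7c, the complex IV gene with the highest mean CPM, was at 89.1 and 101 CPM against 149 and 119 CPM (0.56, adjusted p = 0.128).

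Complex I held the other 2, both accessory subunits. Ndufa12 (chr10:94198720-94221443) was at 26.7 and 35.9 CPM in Tcf21-Cre control against 70.3 and 57.6 CPM in Tgfbr1/2 DKO (1.10 ± 0.22, adjusted p = 0.0234, edgeR). Ndufb8 (chr19:44548572-44555440), a subunit of the membrane arm, was at 22.8 and 22.9 CPM against 38.7 and 37 CPM (0.81 ± 0.20, adjusted p = 0.0498). Both groups stood apart in each. Of the 29 accessory genes 27 were above 0 (median 0.45), among them Ndufa13 (0.58, adjusted p = 0.136) and Ndufb9 (0.45, adjusted p = 0.27). All 7 core subunits, which carry the redox centres, were above 0 without overlap (median 0.475), but none passed with edgeR (3 at an unadjusted p under 0.05), and Ndufs7 alone passed with DESeq2. Ndufs1, the largest core subunit, was at 32.4 and 36 CPM against 39.1 and 44.9 CPM (0.38, adjusted p = 0.346).

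**Figure D3:**
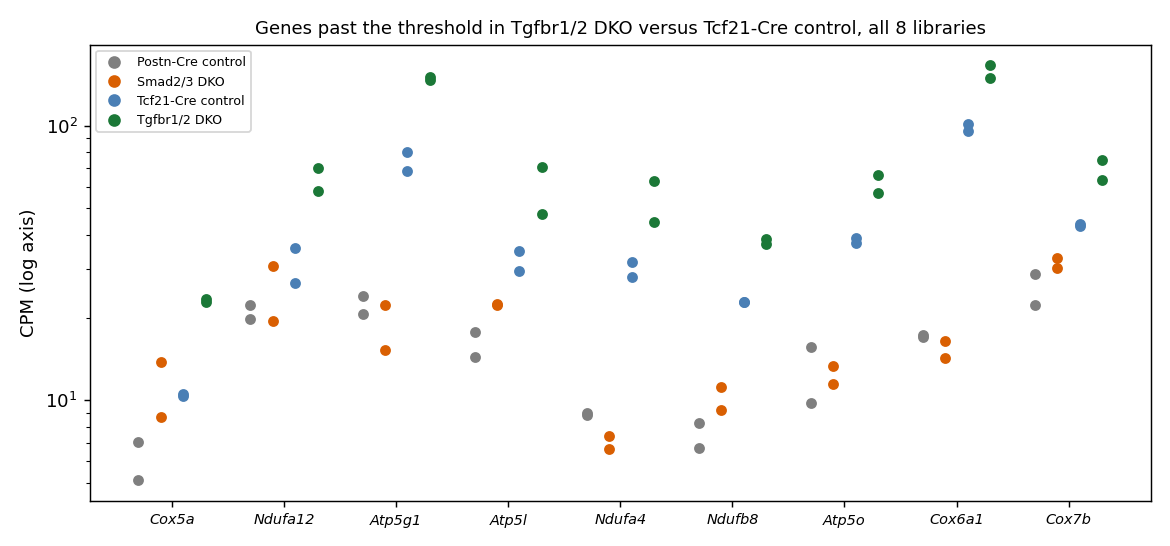
CPM on a log axis (y) of the 9 genes that passed in Tgfbr1/2 DKO (x), with 1 point per library and colours for the 4 groups. In each gene both green Tgfbr1/2 DKO points lie above both blue Tcf21-Cre control points.

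No gene of complexes II or III and no assembly factor passed with edgeR (2, 5 and 1 at an unadjusted p under 0.05), while Sdhb, Uqcrc1 and Uqcrq passed with DESeq2. All 8 complex III genes were above 0 (median 0.601), and Uqcrc1, a core protein, came nearest, at 22.2 and 35.9 CPM against 59.7 and 57.4 CPM (1.08, adjusted p = 0.0511). Uqcrh and Uqcrc2, the complex III genes with the highest mean CPM, reached 0.44 (adjusted p = 0.259) and 0.65 (adjusted p = 0.081) on the log2 scale without passing. Within complex II the genes differed: Sdhb, the iron-sulfur subunit, was at 14.5 and 18.3 against 28.7 and 30.3 CPM (0.93, adjusted p = 0.056) and Sdhc, a membrane anchor, had a log2 fold change of 0.65 (adjusted p = 0.0731). Sdha, the flavoprotein, was at 140 and 173 against 145 and 144 CPM (-0.04, adjusted p = 0.94). The 8 assembly and related factors had a median of 0.204, with Ndufaf3 at 0.33 (adjusted p = 0.494) and Ndufaf4 at 0.22 (adjusted p = 0.707). The tested members with the smallest p among those below 0 were Ndufv3 (-0.26, adjusted p = 0.542), Cox7a2l (-0.19, adjusted p = 0.616) and Ndufb10 (-0.27, adjusted p = 0.625).

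The number of calls depended on single libraries. It was 0 without Tcf21-Cre control HK6, 3 without Tcf21-Cre control HK7, 2 without Tgfbr1/2 DKO HK2 and 2 without Tgfbr1/2 DKO HK4. None of the 9 genes passed in all 4 of these fits, although the median over the members stayed between 0.381 and 0.648.

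Other genes of energy metabolism were read from lists by function. Among 14 carriers and subunits outside the naming rule, Cyc1, the cytochrome c1 subunit of complex III, rose from 35 and 34.2 to 60.7 and 60.2 CPM (0.89 ± 0.18, adjusted p = 0.0275, edgeR). Usmg5, a small ATP synthase subunit, rose as well (1.13, adjusted p = 0.0379), and the other 12 did not pass. In the tricarboxylic acid cycle 2 of 20 genes rose, Cs, citrate synthase (0.84, adjusted p = 0.0333), and Mdh2, mitochondrial malate dehydrogenase (0.92, adjusted p = 0.0236), with a median of 0.38. In glycolysis 6 of 20 rose and none fell (median 0.58). They included Eno1, enolase (1.71, adjusted p = 0.0015), Pgk1 (1.38, adjusted p = 0.00878), Ldha, lactate dehydrogenase A (1.08, adjusted p = 0.0222), and Gapdh (1.03, adjusted p = 0.0308). Among 28 mitochondrial carriers and membrane genes 3 rose, Slc25a5, an ADP/ATP carrier (1.35, adjusted p = 0.00702), Phb (0.86, adjusted p = 0.0376) and Timm23 (0.84, adjusted p = 0.035).

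No gene passed among 18 genes of fatty acid beta-oxidation (median 0.385), 33 assembly factors outside the rule (0.113) and 21 regulators of mitochondrial biogenesis (-0.082). At an unadjusted p under 0.05 there were 5, 2 and 4 of them. Ppargc1a, a coactivator of mitochondrial biogenesis, was at 4.35 and 2.67 CPM in Tcf21-Cre control and at 1.26 and 1.27 CPM in Tgfbr1/2 DKO (adjusted p = 0.134). Ribosomal protein genes had medians close to that of the members: 0.488 over 81 cytosolic genes, of which Rps2 and Rpsa rose, and 0.475 over 75 mitochondrial genes, of which Mrps12 fell.

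Genes that mark other cell types also differed between these 2 groups, and their part in the result was not tested. The summed CPM of 8 epicardial and mesothelial markers was 46.4 to 84 in Tcf21-Cre control and 429 to 445 in Tgfbr1/2 DKO, and 2 of 6 tested rose. In Tgfbr1/2 DKO most of the sum was Aldh1a2, at 387 and 420 CPM against 49.3 and 16.5 CPM in Tcf21-Cre control, while Wt1 was at 1.61 and 1.54 against 0.982 and 0.668 CPM. The 12 myeloid markers summed to 57 to 82.4 against 198 to 215 CPM, and 4 of 10 tested rose (Cd74, Csf1r, Emr1 and Itgam). S100a8 and S100a9 were under 1 CPM in every library. The 14 endothelial markers summed to 550 to 602 against 808 to 863 CPM, and 4 of 14 rose (Cav1, Eng, Fabp4 and Ly6c1). Cardiomyocyte markers, 20 genes, summed to 588 to 606 against 600 to 698 CPM, none of the 19 tested passed (2 at an unadjusted p under 0.05), and their median log2 fold change was -0.047. Most of that sum was Atp2a2, at 396 and 325 CPM in Tcf21-Cre control and at 439 and 421 CPM in Tgfbr1/2 DKO. The 12 pericyte and smooth muscle markers summed to 826 to 1237 against 1216 to 1268 CPM, and 1 of 12 (Acta2) rose. The 5 erythroid markers summed to 26.1 and 42.7 CPM in Tcf21-Cre control and 135 and 46.9 CPM in Tgfbr1/2 DKO. None of the 5 passed (3 at an unadjusted p under 0.05), with a median log2 fold change of 1.41. The 7 Schwann cell markers summed to 24.4 to 47.9 against 18 to 23.9 CPM, and none of 6 tested passed (1 at an unadjusted p under 0.05, median -0.876). In bulk RNA, more cells of a type and more RNA per cell cannot be told apart.

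In Smad2/3 DKO against Postn-Cre control, 86 members were tested and none passed, with edgeR or with DESeq2. At an unadjusted p under 0.05 there were 2 of 86, against 13.6% of all genes, while 1.31% of 15764 genes passed the threshold. The members' median log2 fold change was 0.137, against 0.007 over all genes, and 55 were above 0, against 50.6%. Without overlap, 29 were higher (25.5% of all genes) and 5 lower (18.9%). The sign of the median rested on 1 control library: it was -0.009 without Postn-Cre control HK4 and 0.293 without Postn-Cre control HK3. The untested members were Atp5l2, Cox6b2, Cox7a1, Cox7b2, Cox8b and Cox8c, all too low in these libraries.

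The smallest p among members above 0 belonged to Ndufa2, an accessory subunit of complex I. It was at 5.31 and 3.05 CPM in Postn-Cre control and at 10.8 and 10.9 CPM in Smad2/3 DKO, without overlap (1.31 ± 0.45, adjusted p = 0.215, edgeR). Cox4i1, the main isoform of subunit IV, was at 9.58 and 6.44 against 14.7 and 18.2 CPM (0.98 ± 0.37, adjusted p = 0.269), and Ndufc2 at 5.81 and 2.92 against 8.97 and 9.73 CPM (1.04 ± 0.48, adjusted p = 0.384). Below 0, Atp5b was at 931 and 832 against 742 and 790 CPM (-0.26 ± 0.14, adjusted p = 0.481). Cox4i2, the isoform linked to low oxygen, was at 2.77 and 0.261 against 0.431 and 0.233 CPM (-2.24 ± 1.23, adjusted p = 0.477), and Ndufa4l2 at 1.89 and 1.00 against 0.196 and 0.652 CPM (-1.83 ± 1.06, adjusted p = 0.508). Postn-Cre control HK3, the library of this experiment with the most Cox4i2, also had its highest sums of 12 pericyte and smooth muscle markers and of 14 endothelial markers. The pericyte and smooth muscle sum was 1645 CPM, of which Rgs5 made up 1201 CPM, against 838 to 1115 CPM in the other 3 libraries. Of the 12, Kcnj8 fell and the others did not pass. The 14 endothelial markers summed to 696 CPM in Postn-Cre control HK3, 336 CPM in Postn-Cre control HK4 and 220 to 336 CPM in the knockouts. None of 14 passed (7 at an unadjusted p under 0.05), and none had a log2 fold change above 0 (median -1.08). The 20 cardiomyocyte markers summed to 684 to 726 CPM in the controls and 716 to 770 CPM in the knockouts, and none of 17 tested passed (6 at an unadjusted p under 0.05). Their median log2 fold change was -1.18, and 11 of the 17 were lower without overlap, against 18.9% of all genes. Most of their summed CPM was Atp2a2, at 451 and 534 CPM in Postn-Cre control and at 634 and 582 CPM in Smad2/3 DKO. Cox6a2, the heart and muscle isoform of subunit VIa, was at 1.04 and 0.74 CPM in Postn-Cre control and at 0.392 and 0.279 CPM in Smad2/3 DKO (-1.45, adjusted p = 0.642). The part of these markers in the result was not tested.

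The test of the difference between the knockout effects gave no call among 89 members (12 at an unadjusted p under 0.05, against 17.4% of all genes). Over 17772 genes 1.83% were called, 0.664% higher and 1.17% lower. The median difference, Smad2/3 effect minus Tgfbr1/2 effect, was -0.365 over the members and 0.013 over all genes, and 20 members were above 0, against 50.6%. Nearest to the threshold were Atp5g1 (-1.39 ± 0.31, adjusted p = 0.0521, edgeR), Atp5b (-1.12 ± 0.26, adjusted p = 0.0572), Cox6a1 (-0.98 ± 0.24, adjusted p = 0.0711) and Ndufa4 (-1.31 ± 0.34, adjusted p = 0.083). With DESeq2 these 4 genes passed, at adjusted p-values of 0.00234, 0.00154, 0.0131 and 0.0129. The rise of the 9 genes in Tgfbr1/2 DKO was thus not shown to differ from the Smad2/3 DKO effect in the edgeR fit.

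The largest contrast lay between the control groups. Of 89 tested members, 53 were higher and 3 lower in Tcf21-Cre control than in Postn-Cre control (edgeR), where 18.9% and 16% of all 17772 genes were called. The median log2 fold change was 1.15, against 0.117 over all genes. Other lists also shifted: 63 of 80 cytosolic ribosomal protein genes were higher and 3 lower (median 1.02). Of 18 beta-oxidation genes 9 were higher and 0 lower (1.08). Of 75 mitochondrial ribosomal protein genes 27 were higher and 3 lower (0.759), and of 20 tricarboxylic acid cycle genes 3 and 2 (0.15). Without overlap, 75 members were higher (46.7% of all genes) and 5 lower (23.1%). Run and Cre driver differ together here and cannot be told apart. Without Tcf21-Cre control HK7 the calls fell to 37, all higher.

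Atp5g2, which encodes the same c subunit as Atp5g1 and Atp5g3, was at 0.615 and 0.478 CPM in Postn-Cre control, 0.588 and 0.652 CPM in Smad2/3 DKO, 16.3 and 19.7 CPM in Tcf21-Cre control and 31.7 and 26.6 CPM in Tgfbr1/2 DKO. The log2 fold change between the controls was 4.74 ± 0.37. Among the other complex V genes it was 2.39 for Atp5e, 2.37 for Atp5d, 1.89 for Atp5k, 1.58 for Atp5j2, 1.45 for Atp5g1, 1.29 for Atp5o, 1.14 for Atp5h, 0.79 for Atp5j and 0.72 for Atp5l, and -0.62 for Atp5b, which was lower. In complex IV it was 3.85 for Cox6b2, 2.84 for Ndufa4l2, 2.74 for Cox4i1, 2.23 for Cox6a1, 1.86 for Cox8a, 1.71 for Cox6b1, 1.63 for Cox5b, 1.47 for Ndufa4, 1.17 for Cox7c, 1.14 for Cox7a2l, 1.11 for Cox6c and 1.06 for Cox7a2. Cox6b2 was at or under 0.326 CPM in the Postn-Cre experiment, so its fold is poorly set. These complexes thus held 22 of the 53 higher genes.

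In complex III the log2 fold change between the controls was 3.23 for Uqcr11, 2.13 for Uqcr10, 1.97 for Uqcrc1, 1.39 for Uqcrq and 0.88 for Uqcrh, while Uqcrfs1, the Rieske iron-sulfur protein, was lower (-0.77). In complex II it was 1.41 for Sdhc, 1.26 for Sdhb and 1.00 for Sdhd. Ndufaf3 was higher (1.68) and Ndufaf4 lower (-1.50) among the assembly factors of complex I. Core subunits of complex I that passed included Ndufs7 (2.49), Ndufv1 (2.49), Ndufs8 (2.39) and Ndufv2 (0.96). The 17 accessory subunits that passed ranged from 4.44 for Ndufa3, at 0.385 and 0.652 against 11.2 and 16.2 CPM, to 0.95 for Ndufc1. Between them came Ndufa7 (2.51), Ndufa13 (2.35), Ndufa8 (2.19), Ndufv3 (2.10), Ndufa11 (1.97), Ndufb4 (1.92), Ndufc2 (1.87), Ndufa2 (1.83), Ndufb9 (1.82), Ndufa1 (1.65), Ndufb11 (1.50), Ndufa9 (1.40), Ndufb8 (1.32), Ndufb3 (1.15) and Ndufb10 (0.97).

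The difference between the controls went with the base composition of the transcripts. Across the 89 genes, Spearman's rho between this log2 fold change and the GC content of the longest transcript was 0.596, and across 17527 tested genes with a value it was 0.44. The genes come from the same 8 libraries and are not independent. The 45 members at or above their median GC content of 50.2% had a median log2 fold change of 1.83, and the 44 below it 0.96. With exon length rho was -0.422 among the members and -0.144 among all genes. In the knockout comparisons, each within 1 run, rho with GC content among the members was -0.053 for Smad2/3 and 0.046 for Tgfbr1/2. Across all tested genes with a value it was 0.015 for Smad2/3 and 0.169 for Tgfbr1/2. The part of base composition in the difference between the controls was not tested.

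**Figure D4:**
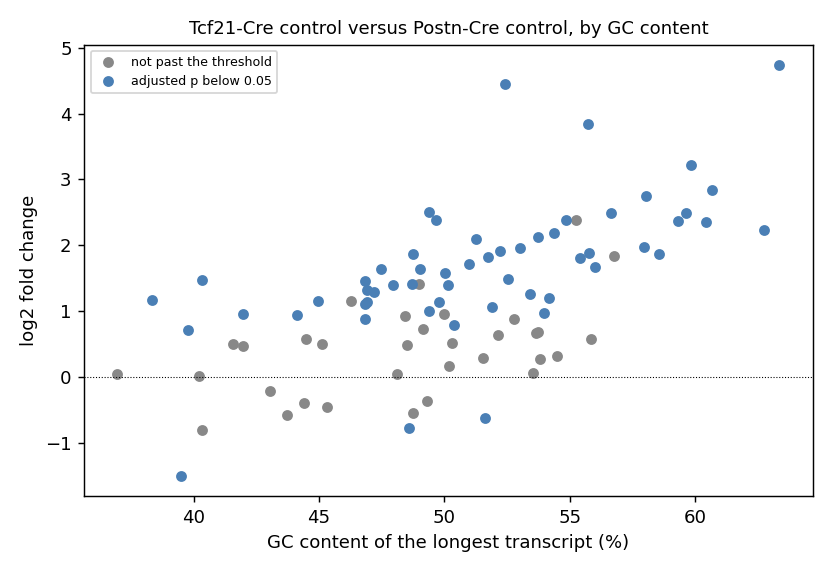
Log2 fold change of Tcf21-Cre control over Postn-Cre control (y axis) against the GC content of the longest transcript in percent (x axis), with 1 point per tested gene and blue points past an adjusted p of 0.05. Higher GC content goes with a higher fold change (rho 0.596), and Atp5g2, at 63.4% GC, is the highest point.

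Paralogous isoforms were compared per exon length, taken as the union of all annotated exons of a gene. That length was 4912 bases for Atp5g1, 1675 for Atp5g2 and 2181 for Atp5g3. Of the Atp5g genes, Atp5g3 made up 79.7% and 80.6% in Postn-Cre control, 75.7% and 87% in Smad2/3 DKO, 44.9% and 38.9% in Tcf21-Cre control and 33.2% and 32.5% in Tgfbr1/2 DKO. Atp5g1 made up 32.4% and 35.5% in Tcf21-Cre control and 41.3% and 44.1% in Tgfbr1/2 DKO. The order depends on the length: without it, Atp5g1 was above Atp5g3 in Tcf21-Cre control. The levels there were 68.2 and 80.3 CPM against 41.9 and 39.1 CPM. These genes encode the same mature protein from different transcripts, and the sources used here do not give how reads that match several genes were counted. The Cox4i2 share of Cox4i1 plus Cox4i2 was 36.3% in Postn-Cre control HK3 and 2.45% to 23.3% in the other 7 libraries. The Ndufa4l2 share of Ndufa4 plus Ndufa4l2 was 37.8% and 32.1% in Tcf21-Cre control and 22.7% and 22.5% in Tgfbr1/2 DKO.

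The isoforms of heart and skeletal muscle were low in all libraries. Cox6a2 was at 0.279 to 2.81 CPM, Cox7a1 at 0 to 1.61 CPM and Cox8b at 0 to 0.868 CPM. Per exon length, Cox6a2 made up at most 5.85% of Cox6a1 plus Cox6a2 and Cox8b at most 4.13% of Cox8a plus Cox8b. Cox7a1 made up 13.4% of Cox7a1 plus Cox7a2 in Tcf21-Cre control HK6 and 0% to 9.44% in the other 7 libraries. Cox8c, known from testis, reached at most 0.233 CPM. In Tgfbr1/2 DKO against Tcf21-Cre control none of the 3 muscle isoforms passed, with log2 fold changes of 0.55 for Cox6a2 (adjusted p = 0.575, edgeR), 0.25 for Cox7a1 (adjusted p = 0.845) and 1.05 for Cox8b (adjusted p = 0.474).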

How the data were processed

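Expression was measured by RNA-seq in 8 libraries of sorted cardiac fibroblasts. The labels' protocols give amplification by the NuGEN Ovation kit and Nextera XT libraries, with no strand-marking step. The authors deposited expected counts (named raw in the file headers, 12.5% of values above 0 exactly whole) for 38087 Ensembl entries, and the submitters' processing notes name mm10 as the build. The aligner and the counter are not stated in the sources used here. Amplified reads are not independent molecules, so floors cover counting error only.

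Counts were rounded and summed by symbol (278 symbols had several entries, none of them a member), and CPM is the count per 1000000 of the library total. Identifiers were matched to GENCODE vM21 (95.3%; GRCm38, the assembly of mm10) for coordinates, exon lengths and GC content; 2 members have another name there. Each knockout comparison used the 4 libraries of its run, fitted in R 4.3.3 by edgeR 4.0.16 with TMM, filterByExpr and the robust quasi-likelihood F test, and the difference and the control contrast on all 8. Standard errors come from the F statistic, and all tests are two-sided. Alternatives used DESeq2 1.42.0, other scalings and filters, and each library left out in turn. Groups came from sample titles.

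The members and lists were chosen with earlier results of these data known. Named genes were those past the threshold in any contrast, the 2 highest of each complex, paralogous isoforms, the 3 with the smallest p in each direction of a knockout contrast, and up to 4 called genes of each list. The values of 1 named gene are not reported here.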

Additional observations from a re-analysis of the deposited data

How the results depend on the processing

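In Tgfbr1/2 DKO against Tcf21-Cre control, the 9 calls became 20 without the low-count filter and 17 with DESeq2 (the 9 among them both times), 3 without robust estimation, 5 with library totals only and 3 with all 8 libraries in the fit. They ranged from 0 to 3 with 1 library left out. The median over the members ranged from 0.381 to 0.648 with 1 library left out. Of the 9 genes, 7 passed again with DESeq2 size factors, 3 without robust estimation, 3 with library totals only and 2 with all 8 libraries. Atp5g1 alone passed under all 7 alternatives that left out no library. Ndufb10 ranged from -0.55 to 0.099, and turned positive without Tcf21-Cre control HK7. In Smad2/3 DKO no alternative gave a call, and the median ranged from -0.009 to 0.293 with 1 library left out; it was 0.048 after a trend with exon length was removed (loess span 0.5).

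For the difference between the effects, 2 members passed with DESeq2 size factors, 3 without the low-count filter and 4 with DESeq2, all lower, and 0 to 1 with 1 library left out. The median difference was -0.227 with library totals only, and -0.233 to -0.56 with 1 library left out. Between the controls the calls were 37 to 60 with 1 library left out. With library totals only, the median of all genes in that contrast was 0.409, against 0.117 with TMM, and 4521 genes were called higher and 1911 lower, against 3352 and 2837. The same change moved the calls over all genes in Smad2/3 DKO from 71 higher and 135 lower to 90 and 108, and for the difference from 118 and 208 to 157 and 157; for Tgfbr1/2 DKO they moved from 439 and 218 to 328 and 248. The cause of these shifts was not tested.

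With TMM library sizes the summed CPM was 2590.2 and 2150.3 in Postn-Cre control HK3 and HK4. It was 2253.2 and 2326.6 in Smad2/3 DKO HK15 and HK16. The sums were 2982.1 and 3447.1 in Tcf21-Cre control HK6 and HK7, and 4748.4 and 4960.2 in Tgfbr1/2 DKO HK2 and HK4. Removal of a trend with GC content, chosen after seeing the data, left medians of 0.113, 0.484 and -0.38 for Smad2/3 DKO, Tgfbr1/2 DKO and the difference. A total without mitochondrially encoded genes could not be computed, since none of the 13 subunit symbols searched for was found in the count tables. No paired analysis was possible because the groups compared share no HK numbers.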
